A study of Mus musculus with 9 samples.

Results

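Circular RNAs (circRNAs, here also called rings) from genes of protein and lipid kinases were described in mouse liver. The hosts were chosen by gene symbol alone: single host genes whose symbol begins as those of the MAP kinase cascade, the cyclin-dependent, DYRK, HIPK and CLK kinases, the AGC kinases and AMPK, the STE20-like kinases, the calcium/calmodulin, MARK, casein, NEK, WNK and TLK kinases, or the phosphoinositide kinases, with Hipk3 left out. The rule found 78 of 3930 host genes and 286 of 11312 rings, of which the MAP kinase cascade made up 18 host genes and 63 rings. A few members encode no catalytic subunit: Prkag2 and Prkar2a are regulatory subunits of AMPK and protein kinase A, Pik3r1 is a regulatory subunit of class I phosphoinositide 3-kinase, Pik3ap1 is an adaptor, and Prkcsh matches by its letters and encodes a subunit of glucosidase II.

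The livers came from 8-week-old wild-type C57 BL6 mice in 3 groups of 3 libraries. The control group received saline, the APAP group received an intraperitoneal overdose of acetaminophen at 500 mg/kg, and the dmPGE2+APAP group received the same overdose 1 hour after 300 µg/kg of dmPGE2, a stable analogue of prostaglandin E2. Livers were taken 6 hours after acetaminophen. The labels do not tie a library to a numbered animal, and a p-value reflects how far these libraries spread, which may be technical. Per the labels, ribosomal RNA was removed from total RNA, and no step that digests linear RNA is named.

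Back-splice reads per library ranged from 69268 to 154449 in 8 libraries and numbered 4362 in control 3, where 1 read is worth 229 CPM and 3 reads are worth 688 CPM. CPM stands for the count of a ring or host scaled to a library total of 1000000 circRNA reads. Control 3 held reads of 15 member hosts and 21 member rings, against 42 to 54 hosts and 77 to 129 rings in the other 8, which are called the deep libraries below. It stayed in the comparisons, and values without it stand beside the results they touch. The smallest count above 0 was 2, so a ring listed at 0 may still have been read. Of the marker genes looked for, 7 of 10 hepatocyte genes had rings (not Cyp3a11, Ttr and Serpina1a), with summed levels of 12211 to 14901 CPM in control, 14171 to 18764 CPM in APAP and 11907 to 15672 CPM in dmPGE2+APAP. None of the 5 neutrophil genes had a ring, and Adgre1 was the single one of 6 Kupffer cell genes with rings (0 to 816 CPM, 245 to 975 CPM and 696 to 967 CPM in the 3 groups). Among 5 lymphocyte, 6 stellate cell and 5 cholangiocyte genes, 2, 1 and 1 had rings, and among 6 endothelial genes 5 had. Fewer cells of a type and less RNA per cell cannot be told apart in whole liver.

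Kinases transfer phosphate from ATP to proteins or to phosphoinositide lipids, and most signalling routes of the hepatocyte pass through them. In the MAP kinase cascade a kinase of the MAP3K tier activates one of the MAP2K tier, which activates a MAP kinase such as JNK or p38. In acetaminophen injury the JNK branch, with the stress-sensing MAP3K ASK1 (Map3k5) above it, is known for its part in mitochondrial damage. A ring forms when the end of a downstream exon of such a gene is spliced back to the start of an upstream exon, and each ring is counted at that 1 junction, so that levels of single rings carry no length term. A host sum adds up all rings of a gene.

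The joined ends of 6 rings are shown because they are what the reads of the most read kinase rings must cross. Each line runs 5′ to 3′ on the strand of the gene, with the last 20 bases of the ring in lower case followed by its first 20 bases in capitals, read from GENCODE M21 transcripts of build GRCm38. These are the rings with the highest mean CPM among the members.
Cdk12, mmu_circ_0000319, chr11:98263470-98267858, plus strand: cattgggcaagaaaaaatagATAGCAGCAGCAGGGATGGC
Tlk1, mmu_circ_0001031, chr2:70768862-70786995, minus strand: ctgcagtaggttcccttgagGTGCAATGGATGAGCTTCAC
Mark3, mmu_circ_0000421, chr12:111592577-111618383, plus strand: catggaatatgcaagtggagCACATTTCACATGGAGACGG
Clk1, novel_circ_0007340, chr1:58417013-58417383, minus strand: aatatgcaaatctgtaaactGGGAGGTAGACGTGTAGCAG
Map2k1, mmu_circ_0001794, chr9:64204431-64214609, minus strand: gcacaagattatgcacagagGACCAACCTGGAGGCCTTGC
Cdk8, novel_circ_0011085, chr5:146259505-146271735, plus strand: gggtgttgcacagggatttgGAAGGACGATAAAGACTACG

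Of these, 4 rings lay wholly in coding exons: exons 2 to 5 of Mark3, 6 and 7 of Clk1, 2 to 5 of Map2k1 and 2 to 4 of Cdk8. The Cdk12 ring did not. It began 13084 bases beyond the last coding base of Cdk12, and its 3 exons (322 bases) belong to a transcript of the gene for which the annotation gives no reading frame. Cdk12 encodes a kinase of the RNA polymerase II tail, and this ring, the most read of all members at a mean of 1655 CPM over the 9 libraries, holds none of the kinase's coding sequence. The Tlk1 ring holds 2 coding exons and a last exon that is annotated in noncoding transcripts alone.

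The members held about 2% of back-splice reads. By library the percent was 2.04%, 1.87% and 2.06% in control 1 to 3, 2.14%, 1.995% and 2.14% in APAP, and 2.20%, 2.25% and 2.17% in dmPGE2+APAP, or 1.99% ± 0.106, 2.09% ± 0.0809 and 2.21% ± 0.0425 (SD, n = 3). Every dmPGE2+APAP library thus lay above every control and every APAP library. Counting error is wide beside some of these gaps and not beside others. The 95% Wilson interval of control 3, on 90 member reads, was 1.68% to 2.53% and holds all dmPGE2+APAP values. That of APAP 1 (2.05% to 2.22%) overlaps that of dmPGE2+APAP 3 (2.08% to 2.25%). The intervals of control 2 (1.80% to 1.94%) and APAP 2 (1.914% to 2.080%) lie below those of all dmPGE2+APAP libraries. The lowest of these starts at 2.085%. The interval of control 1 (1.97% to 2.11%) lies below those of dmPGE2+APAP 1 (2.12% to 2.28%) and 2 (2.16% to 2.35%), and overlaps that of dmPGE2+APAP 3. Control and APAP overlapped. The gap between the control and dmPGE2+APAP means was larger than the SD of either group. A sum over chosen members was not tested. As a percent of detected rings in place of reads, control 1 and 2 stood at 2.38% and 2.55% and control 3 at 2.84%, APAP at 2.42% to 2.49% and dmPGE2+APAP at 2.39% to 2.58%, so that all groups overlapped.

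The MAP kinase cascade held 0.363%, 0.315% and 0.160% of reads in control 1 to 3, the last on 7 reads. It held 0.373%, 0.259% and 0.342% in APAP and 0.316%, 0.367% and 0.275% in dmPGE2+APAP, so that the 3 groups overlapped. Without control 3 the control mean was 0.339% ± 0.0333 (SD, n = 2). APAP stood at 0.324% ± 0.0591 and dmPGE2+APAP at 0.320% ± 0.0461 (SD, n = 3). Of all member reads, 15.6% came from this cascade, 21.8% from the cyclin-dependent and related kinases, 15.2% from the NEK, WNK and TLK kinases, 14.1% from the lipid kinases, 13.6% from the AGC kinases and AMPK, 9.58% from the STE20-like kinases, 6.18% from the calcium/calmodulin and MARK kinases and 4.02% from the casein kinases.

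**Figure D1:**
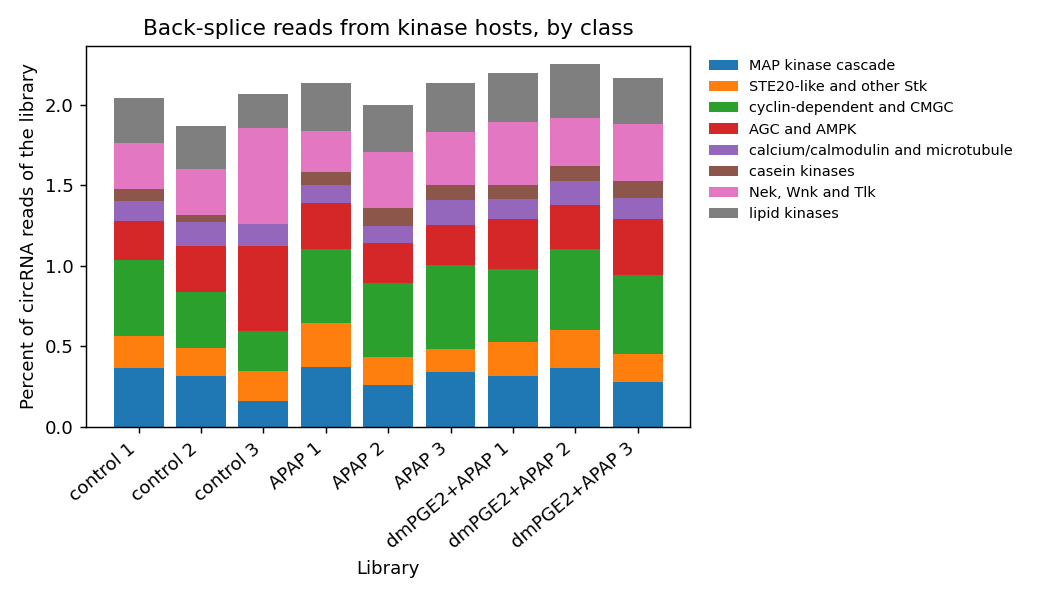
Percent of each library's back-splice reads (vertical axis) that came from kinase hosts, stacked by class of kinase, for the 9 libraries. The stacks reach 1.87% to 2.25%, and control 3, on 90 member reads, has the smallest MAP kinase share (0.160%) and no casein kinase reads.

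Reads were concentrated in few rings. The 10 most read member rings held 42.1% of the members' 19017 reads, and 38 of 286 rings (13.3%) were read in all 8 deep libraries, against 13.1% of the 11026 other rings. Those 38 held 66.1% of member reads, where such rings held 73.7% of the reads of other rings. A further 118 rings (41.3%) were read in a single deep library, against 38.6% of other rings. Kinase hosts gave a median of 2.5 rings per gene against 2.0 for other hosts, and 6 of 78 (7.69%) gave 10 or more, against 3.82% of other hosts. Of 266 exonic member rings, 98.1% had both ends at annotated exon ends (92.9% of other exonic rings). The median member ring held 4 exons, as did the median of the others, and 488 spliced bases against 499. The introns beside the rings were longer than those of the same hosts at large. The median was 7837 bases for the intron before the ring and 5598 bases for the one after it, where all introns of these hosts had a median of 1782 bases. In other hosts the 3 medians were 6518, 4858 and 1763 bases.

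Among the 50 hosts with enough reads to be tested, the most read ring began at exon 2 in 23 of 47 whose most read ring ended at exon ends (48.9%), against 37.4% of the other tested hosts. In the MAP kinase cascade it did so in 6 of 8. These include Map2k1 (MEK1, exons 2 to 5), its paralog Map2k2 (MEK2, exons 2 to 4), Map2k4 (MKK4, exons 2 to 4), Map3k21 (exons 2 to 4) and Map3k3 (exons 2 to 6). The other 2 were Map3k5, whose most read ring spans exons 11 to 14, and Map3k2, with exons 13 to 15. With the untested hosts added, it began at exon 2 in 30 of 74 member hosts (40.5%), against 36.5% of other hosts. In the cascade this was 7 of 17. Of all member rings with both ends at exon ends, 30.7% began at exon 2, against 28.4% of other such rings. These counts were made after the ring positions had been seen.

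In some hosts several rings shared an end. In Tlk1, a kinase of chromatin assembly, 7 of 13 rings began at the same base and together held 97.5% of the gene's reads. Their 3′ ends lay 17.0 to 48.6 kb downstream. In Mark3, a kinase of microtubule-associated proteins, 5 of 7 rings shared a 5′ end and held 98.9% of reads, and all 3 Map2k1 rings shared one. The most read ring alone held 47.5% of reads in Tlk1, 80.6% in Mark3 and 85.6% in Map2k1. Map3k5 and Pik3c2a, a class II phosphoinositide 3-kinase, gave 19 rings each from 9 and 13 different 5′ ends, and their most read rings held 27.3% and 35.3% of reads. Clk1, a kinase of splicing factors, and Csnk1g3, a casein kinase, gave 1 ring each.

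**Figure D2:**
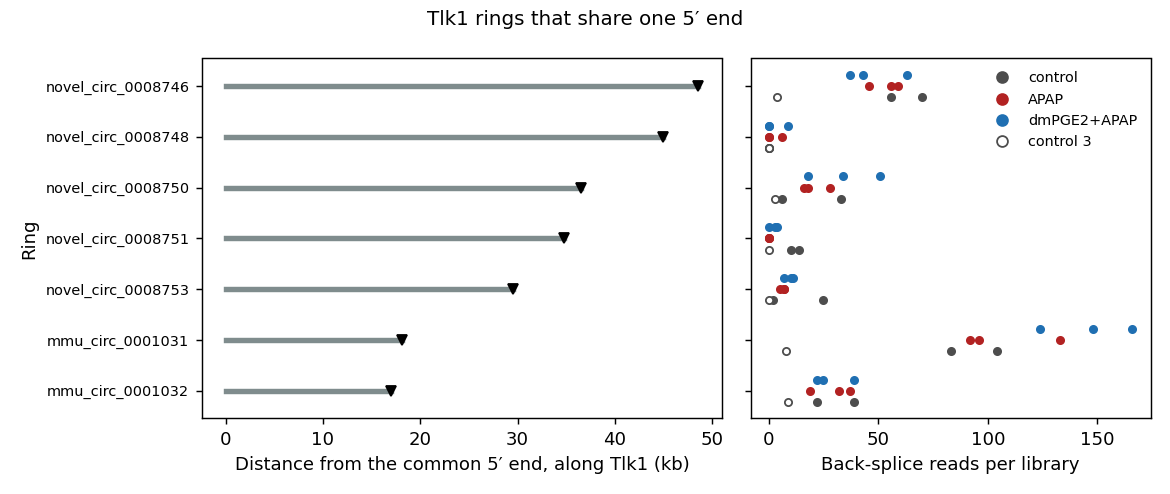
The 7 rings of Tlk1 with a common 5′ end. The left panel shows the distance from that end to the end of each ring along the gene in kb, and the right panel the back-splice reads of each ring in each library, coloured by group (open circle: control 3). The ring of 18.1 kb is the most read in every deep library.

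The Tlk1 ring mmu_circ_0001031 had 104, 83 and 8 reads in the control libraries, 92, 133 and 96 after APAP, and 166, 124 and 148 after dmPGE2+APAP. It held 36.5% and 41.7% of the gene's reads in control 1 and 2, 39.3%, 50.6% and 52.2% in APAP, and 55.0%, 54.6% and 50.7% in dmPGE2+APAP, where every library lay above both deep control libraries. With dmPGE2+APAP against control its log2 fold change was 0.92 ± 0.41 (SE) at an unadjusted p of 0.0238, which did not pass an adjusted p of 0.05 over all rings in edgeR's quasi-likelihood test (adjusted p = 0.96). The second Tlk1 ring, novel_circ_0008746, had 56, 70 and 4 reads, 56, 59 and 46, and 63, 37 and 43 in the 3 groups, with a log2 fold change of -0.07 ± 0.50 (SE) in the same comparison. Whether the 2 rings differ in response was not tested.

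The levels of host sums ranged widely. Tlk1 led with 1845 CPM, 1531 CPM and 5502 CPM in control 1 to 3, the last on 24 reads, then 2153, 2403 and 2656 CPM in APAP, and 2506, 2291 and 2544 CPM in dmPGE2+APAP. Without control 3, the 6 treated libraries all lay above the control libraries. Among all tested hosts, 9.71% lay wholly above control with APAP and 10.4% with dmPGE2+APAP when control 3 was left out. The Tlk1 log2 fold changes without control 3 were 0.45 ± 0.19 (SE) for APAP and 0.50 ± 0.19 (SE) for dmPGE2+APAP against control. Neither passed in edgeR (adjusted p = 0.909 and 1). With control 3 they were 0.22 ± 0.29 and 0.27 ± 0.29 (SE), and -0.03 and 0.03 without control 2, and the ranges overlapped.

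Cdk12 followed with 300, 172 and 4 reads in the control libraries, 195, 156 and 168 after APAP and 191, 188 and 198 after dmPGE2+APAP, or 1394 ± 516 CPM, 1882 ± 506 CPM and 1736 ± 156 CPM (SD, n = 3). The groups overlapped, as they did for Rps6kc1, an S6 kinase-like protein (151, 135 and 15 reads, 131, 128 and 69, and 150, 116 and 152), and Mark3 (174, 190 and 6, then 117, 113 and 106, then 141, 137 and 147). Neighbours in the order of mean levels overlapped: Cdk12, at a mean of 1765 CPM over the deep libraries, reached from 1323 to 2425 CPM, a range that holds libraries of Tlk1, Mark3 and Pik3c2a. Cdk13, the paralog of Cdk12, stood at 453 to 623 CPM in the deep control libraries, 423 to 563 CPM in APAP and 314 to 484 CPM in dmPGE2+APAP.

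**Figure D3:**
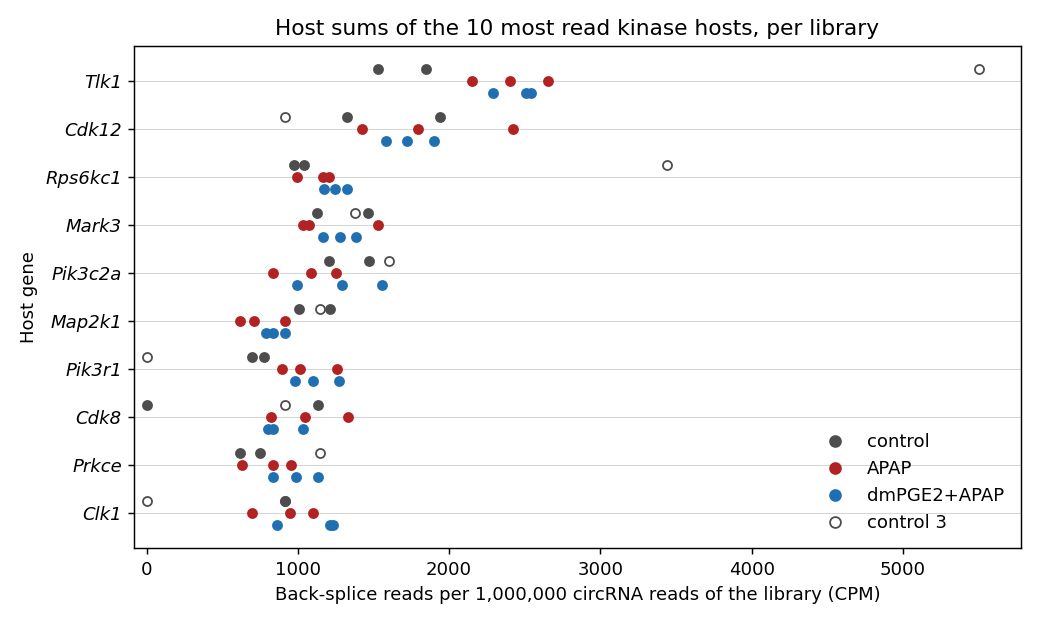
Host sums in CPM (horizontal axis) of the 10 most read kinase hosts in each library, coloured by group, with control 3 as open circles. Control 3 lies far from the other control libraries for Tlk1 and Rps6kc1 and at 0 for Pik3r1 and Clk1.

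APAP and control were compared to see which kinase rings differ 6 hours into the injury. No member host and no member ring passed, that is, had an adjusted p under 0.05, in edgeR. The host sums nearest to a change were higher after APAP for Csnk1g3, the Mediator kinase Cdk8, Map2k2 (MEK2, of the MAP2K tier) and Pik3r1, and lower for Tlk2, the paralog of Tlk1. None of the 50 tested members passed, where 0.339% of all 2358 tested hosts did. At an unadjusted p under 0.05 there were 2 members (4.0%), against 5.34% of all tested hosts. DESeq2 passed 0 members (0.424% of all), with 2 at an unadjusted p under 0.05 (5.09% of all), and limma-voom 0 (0.0848%), with 4 (7.89%). Of the 103 tested rings 0 passed in edgeR (0.139% of all 4331), with 5 at an unadjusted p under 0.05 (5.17%). DESeq2 also passed 0 (0.277%), with 5 (4.96%), and limma-voom passed 1 ring, that of Cdk8 (0.0924%), with 9 (8.45%). The median log2 fold change of the member hosts was 0.10, with 28 above 0 and 22 below, and that of all tested hosts 0.15, with 58.6% above 0. Without control 3 these medians were -0.08 and -0.04, with 22 members above 0 and 28 below, so that the side of 0 on which the medians of hosts lie turns on that library. For the tested member rings the median was -0.04, with 48 above 0 and 54 below, against 0.16 for all tested rings, of which 57.1% lay above 0. Without control 3 it was -0.34, with 35 above 0 and 67 below, against -0.06 and 46.9%. In the fit of the 8 deep libraries to hosts read in all of them, 0 of 28 members passed (0.855% of all tested hosts), with a median SE of 0.41. At an unadjusted p under 0.05 there were 4 (14.3%), against 8.73% of all tested hosts. In the same fit of rings 0 of 38 members passed (0.538% of all), with a smallest edgeR adjusted p of 0.0529. At an unadjusted p under 0.05 there were 6 (15.8%), against 9.82% of all tested rings.

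Csnk1g3 had 59, 26 and 0 reads in the control libraries and 78, 93 and 46 after APAP. This is 194 ± 191 CPM against 744 ± 95.5 CPM (SD, n = 3), and the 2 groups did not overlap (3 of 50 members lay wholly higher, against 8.1% of all tested hosts). Its log2 fold change was 1.48 ± 0.51 (SE) at an unadjusted p of 0.00387, and it did not pass (edgeR adjusted p = 0.42, and 0.0974 to 1.00 over 17 alternatives). Its direction was the same in all of them, with log2 fold changes of 1.22 to 2.10, and without control 3, where its host was at 0, it was 1.29 (edgeR adjusted p = 0.243).

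Pik3r1 had 108, 101 and 0 reads in the control libraries and 110, 98 and 87 after APAP, or 699, 777 and 0 CPM against 1012, 895 and 1256 CPM. APAP lay above control in 3 of 3 libraries, with a log2 fold change of 0.69 ± 0.39 (SE) with control 3 and 0.45 without it, and it did not pass (edgeR adjusted p = 0.908). Tlk2 had 37, 51 and 2 reads in the control libraries and 15, 12 and 0 after APAP, a log2 fold change of -1.84 ± 0.96 (SE), not passing (edgeR adjusted p = 0.869). In CPM its APAP libraries all lay below control (239.6, 392 and 459 against 138, 109.6 and 0). Map2k1 was the other member lying wholly lower (2 of 50, against 2.25% of all tested hosts).

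Cdk8 had 175, 0 and 4 reads in the control libraries and 145, 115 and 57 after APAP. In CPM this is 1133, 0 and 917 against 1334, 1051 and 823, so that the groups overlapped, with control 2 at 0 on a depth of 129971 reads. The log2 fold change was 0.88 ± 0.45 (SE), not passing in edgeR (adjusted p = 0.869). Without control 1 it was 4.63 and passed (edgeR adjusted p = 0.0123), where 0.227% of all tested hosts did. Without control 2 it was 0.10. On all 9 libraries DESeq2 gave 0.81 ± 1.34 (SE) and limma-voom 3.61 ± 1.00 (SE), so that the SE differed much between tools. Over the other alternatives the adjusted p ran from 0.233 to 1. The Cdk8 ring novel_circ_0011085, with 142, 0 and 4 reads in the control libraries and 130, 93 and 47 after APAP, passed in limma-voom (log2 fold change 3.39, adjusted p = 0.0376, where 0.0924% of all rings passed) and in edgeR without control 1 (4.25, adjusted p = 0.0229, where 0.0771% of all rings passed), and in none of the other alternatives. With dmPGE2+APAP against control the ring passed without control 1 alone (4.10, edgeR adjusted p = 0.0227, where 0.103% of all rings passed). Whether the Cdk8 host sum passed thus turned on control 1, where it was well read beside control 2, where it was listed at 0, and whether the ring passed turned also on the tool.

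Listing at 0 in at least 1 deep library was seen in 3 of 28 member rings read in at least 4 deep libraries with a median of at least 20 reads there (10.7%), against 80 of 985 other rings (8.12%). Beside Cdk8 these were the Map2k2 ring mmu_circ_0000188 with 36, 0 and 0 reads in the control libraries, then 51, 0 and 36, then 27, 24 and 29, and the single ring of Stk35, a nuclear kinase, with 54, 0 and 0, then 36, 37 and 0, then 0, 45 and 44. All 3 of these 28 were at 0 in control 2, where 12 of the 985 other rings were at 0 too. Members and others together, 1.48% of such rings were at 0 there. The log2 fold change of Map2k2, 1.56 ± 0.85 (SE) for APAP against control, did not pass (edgeR adjusted p = 0.869). Without control 1 it was 7.93 (edgeR adjusted p = 0.199), a fitted value that is no bound, since both control libraries left were at 0.

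Of the MAP kinase cascade, 7 of 9 tested hosts had log2 fold changes above 0 for APAP against control with control 3 and 3 of 9 without it, none passing, where 58.6% and 48.6% of all tested hosts lay above 0. Of the 21 tested rings of the cascade 9 lay above 0 with control 3 and 5 without it, against 57.1% and 46.9% of all tested rings. Map2k1 had 156, 158 and 5 reads in the control libraries, 77, 100 and 43 after APAP, and 95, 91 and 96 after dmPGE2+APAP. In CPM all 3 control libraries (1010, 1216 and 1146) lay above all 3 of APAP (709, 914 and 621). They also lay above all 3 of dmPGE2+APAP (788, 918 and 836). The control 3 value rests on 5 reads. CPM also leave out the TMM factors of the fits, which lower control 3 (1.58) against the other libraries (0.924 to 1.00). Separation in CPM therefore need not hold on the scale of the fits. The log2 fold changes, -0.49 ± 0.39 and -0.30 ± 0.38 (SE), did not pass (edgeR adjusted p = 1 for both). Map3k5 had 112, 81 and 0, then 87, 51 and 49, then 81, 104 and 73, and overlapped between all groups. Map3k21, a mixed-lineage MAP3K, had 40, 32 and 0 reads, then 28, 22 and 30, then 24, 19 and 40, and overlapped as well. The tested hosts of the cascade also included Map3k2, Map3k3 and Mapk14 (p38 alpha), with at most 26 reads in any library. The 9 members of the cascade with too few reads to test include Mapk8 (JNK1), Map3k1 and Map4k2 to Map4k5, and over all classes the 28 untested hosts had at most 20 reads in any library.

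For the prostaglandin analogue given ahead of the overdose, the comparison was between the 2 treated groups. No member host stood out. In edgeR 0 of 50 passed (0.127% of all tested hosts), with 0 at an unadjusted p under 0.05 (2.71% of all). DESeq2 gave 0 and 0 (0.0424% and 3.22% of all), and limma-voom 0 and 1 (0.0% and 5.68%). Of 103 rings 0 passed (0.0693% of all), with 3 at an unadjusted p under 0.05 (3.81%), against 0 and 3 in DESeq2 (0.0% and 3.69%) and 0 and 4 in limma-voom (0.0% and 6.65%). The median log2 fold change of the member hosts was 0.14, with 30 above 0 and 20 below. For all tested hosts it was 0.03, with 52.5% above 0. The median of the member rings was 0.26, with 68 above 0 and 35 below. That of all tested rings was 0.08, with 54.5% above 0.

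The 5 members with the smallest unadjusted p were Map2k4, a kinase above JNK and p38 (25, 6 and 16 reads in APAP and 0, 18 and 0 in dmPGE2+APAP, log2 fold change -1.52 ± 1.11 SE), Cdk19, the paralog of Cdk8 (3, 4 and 9 against 6, 13 and 41, 1.54 ± 1.19 SE), Pi4k2a, a phosphatidylinositol 4-kinase (24, 21 and 20 against 15, 15 and 8, -0.99 ± 0.97 SE), Nek9 (7, 13 and 6 against 45, 6 and 15, 1.09 ± 1.12 SE) and Prkag2 (26, 62 and 22 against 70, 51 and 55, 0.50 ± 0.51 SE). The smallest unadjusted p among them was 0.174, for Map2k4. Single libraries carried several of these values. Without dmPGE2+APAP 2 that of Map2k4 was -7.10 (edgeR adjusted p = 0.34), a fitted value that is no bound, since both libraries left were at 0, and without dmPGE2+APAP 1 or 3 it was -0.89 and -0.91. Without dmPGE2+APAP 3 that of Cdk19 was 0.54, and without APAP 3 it was 2.44. Without dmPGE2+APAP 1 that of Nek9 was 0.10. That of Prkag2 was 0.97 without APAP 2 and 0.26 without APAP 1. Pi4k2a was the 1 member of 50 whose groups did not overlap in CPM (wholly lower with dmPGE2, against 4.54% of all tested hosts). All of them had an adjusted p of 1.00 in edgeR.

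The log2 fold change of dmPGE2+APAP against APAP was 0.05 ± 0.27 (SE) for Tlk1, -0.08 ± 0.30 for Cdk12, 0.11 ± 0.33 for Mark3, 0.19 ± 0.37 for Map2k1, 0.11 ± 0.37 for Pik3r1, -0.25 ± 0.41 for Cdk8 and -0.26 ± 0.46 for Csnk1g3. Members with fewer reads were measured less well, and the median SE over the 50 hosts was 0.88.

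The comparison of dmPGE2+APAP with control shares its libraries with both others. In edgeR 0 of 50 hosts passed (0.17% of all tested hosts), with 2 at an unadjusted p under 0.05 (4.24%), against 0 and 2 in DESeq2 (0.0424% and 3.9% of all) and 0 and 7 in limma-voom (0.0424% and 6.66%). Of 103 rings 0 passed (0.115% of all), with 7 at an unadjusted p under 0.05 (4.34%), against 0 and 5 in DESeq2 (0.0231% and 3.95%) and 0 and 12 in limma-voom (0.0462% and 7.41%). The median log2 fold change was 0.27 for the members and 0.20 for all tested hosts, and 0.11 and 0.03 without control 3. Csnk1g3 had 77, 52 and 78 reads with dmPGE2+APAP, above all 3 control libraries in CPM (log2 fold change 1.22 ± 0.50 SE, edgeR adjusted p = 1). Pik3r1 had 153, 97 and 126, likewise above all 3 (0.81 ± 0.39 SE, edgeR adjusted p = 1). With Cdk17, read in 2 of the other 6 libraries, these made 3 of 50 members wholly higher than control in CPM (8.52% of all tested hosts). Map2k1 and Tlk2 were the 2 wholly lower in CPM (2.8%). Tlk2 had 25, 0 and 15, below all 3 (-1.41 ± 0.94 SE). Cdk8 had 97, 83 and 119 (0.63 ± 0.45 SE, 0.57 ± 1.34 SE in DESeq2, -0.14 without control 2, and 4.38 without control 1). That last fit passed Cdk8 (edgeR adjusted p = 0.0389) and 0.273% of all tested hosts, and over the other alternatives its adjusted p ran from 0.613 to 1. Stk24, a STE20-like kinase, was listed at 0 in every control library and had 0, 5 and 6 reads in APAP and 6, 0 and 0 in dmPGE2+APAP, too few for a fold.

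**Figure D4:**
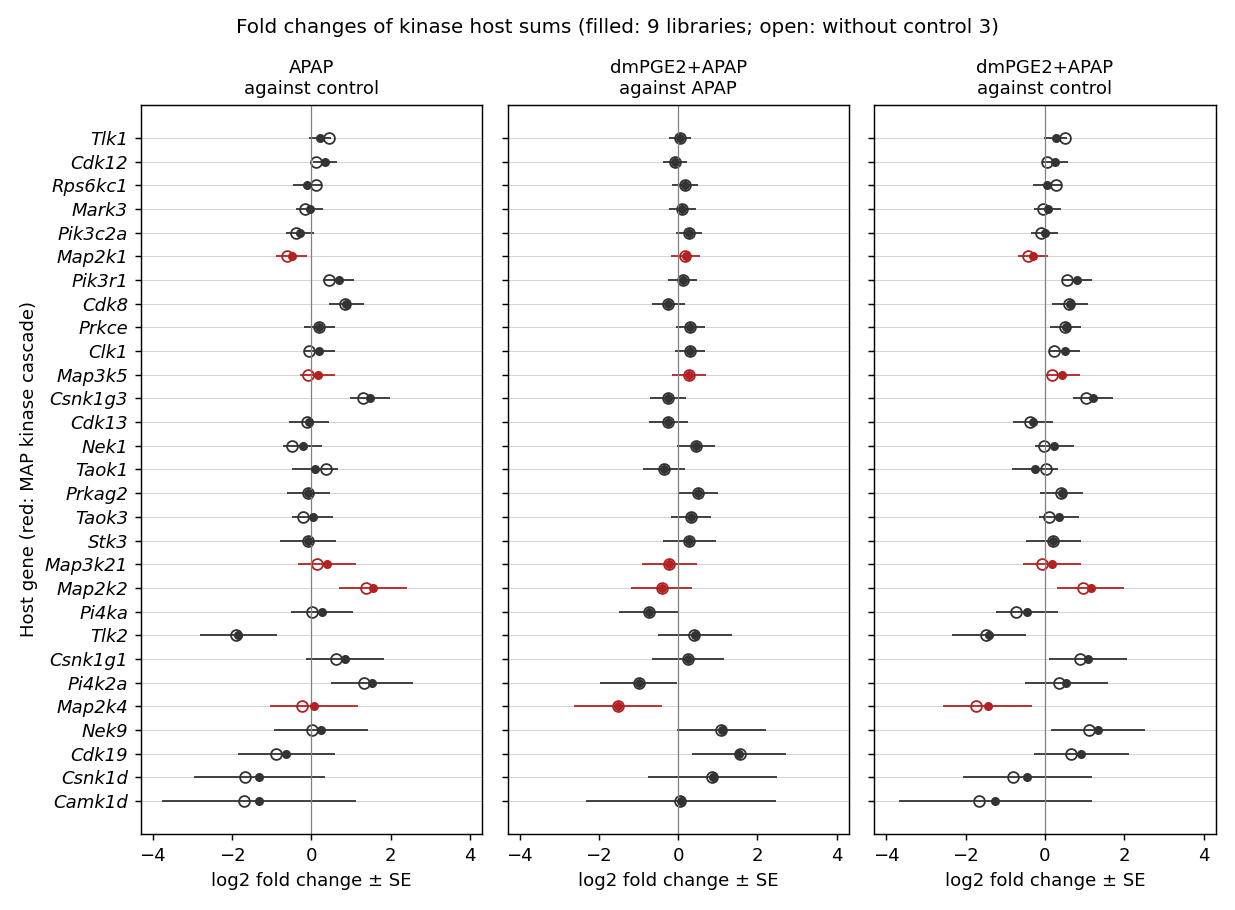
Log2 fold changes of the host sums of 29 kinase hosts in the 3 comparisons, with bars of 1 SE from edgeR (filled points, 9 libraries) and the values without control 3 (open circles). MAP kinase hosts are in red. None passed, and the open circles of 26 of the 29 hosts lie left of the filled ones in each comparison with control.

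Other named hosts can be given in short. Prkce, protein kinase C epsilon, had 616 to 1146 CPM in control, 630 to 957 CPM in APAP and 838 to 1133 CPM in dmPGE2+APAP. Clk1 had 141, 119 and 0 reads, then 76, 104 and 76, then 146, 122 and 99. Pik3c2a had 186, 191 and 7, then 118, 137 and 58, then 120, 154 and 148. Groups overlapped in all 3 hosts, and they did so in Nek1, Taok1, Taok3 and Stk3 (MST2, a Hippo pathway kinase), each at 78.4 to 1376 CPM where read. Pi4ka, a phosphatidylinositol 4-kinase, had 60, 18 and 0 reads, then 23, 32 and 23, then 24, 26 and 4. The casein kinases Csnk1g1 and Csnk1d had at most 33 and 29 reads in a library, and Camk1d, a calmodulin-dependent kinase, at most 11. Mark4 had too few reads to test.

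Genes that act beside the members were taken from lists. Of 53 partners of the MAP kinase cascade 24 had rings and 17 were tested. In edgeR 0 passed in each of the 3 comparisons, with 0 at an unadjusted p under 0.05, and DESeq2 and limma-voom passed 0 as well, with at most 1. Over all tested hosts, edgeR passed 0.339%, 0.127% and 0.17% in the 3 comparisons, with 5.34%, 2.71% and 4.24% at an unadjusted p under 0.05. Their median log2 fold changes were 0.23, -0.22 and 0.11 for APAP against control, dmPGE2+APAP against APAP and dmPGE2+APAP against control. Spred2, an inhibitor of Ras signalling, led them with means of 2602 ± 526 CPM, 2682 ± 764 CPM and 2851 ± 486 CPM in the 3 groups (SD, n = 3). Of 46 partners of phosphoinositide 3-kinase, AKT and mTOR 31 had rings and 22 were tested. Here too 0 passed in edgeR, with 1, 0 and 2 at an unadjusted p under 0.05, and 0 in DESeq2 and limma-voom, with at most 3, and the medians were 0.33, -0.15 and 0.23. Insr, the insulin receptor, stood at 1424 ± 172 CPM, 1529 ± 84.3 CPM and 1485 ± 212 CPM in the 3 groups (SD, n = 3). Of 116 other protein kinases 67 had rings and 38 were tested. The ephrin receptor Epha2 rose in both comparisons with control (log2 fold change 2.93 ± 0.55 and 3.38 ± 0.56 SE, edgeR adjusted p = 0.000358 and 3.89e-06) and was the 1 of the 38 that passed (0.339% and 0.17% of all tested hosts did). At an unadjusted p under 0.05 there were 3, 0 and 2 of the 38 in the 3 comparisons, against 5.34%, 2.71% and 4.24% of all tested hosts. The first of the 2 calls was lost in limma-voom, which passed 0 of the 38 there.

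The table also gives reads at the same splice sites that run on in linear order, from which a circular share can be formed: junction reads, counted once for each of the ring's 2 ends, over junction and non-junction reads. These lists could be read for 261 of the 286 member rings. The share differed between rings far more than between groups. It was 90.8% to 97.7% for the Cdk12 ring in the deep libraries and 91.3% to 99.5% for the Cdk8 ring in the 7 where it was read, 70.1% to 85.1% for Mark3 and 46.9% to 73.5% for Map2k1. The Tlk1 rings with a common 5′ end went from 70.0% to 91.9% for mmu_circ_0001031 down to 21.8% to 49.7% for mmu_circ_0001032, which ends 1 exon earlier.

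Over the 37 member rings with values in all 8 deep libraries the share was 60.9% and 57.0% in control, 52.6%, 55.8% and 44.7% in APAP, and 55.5%, 54.8% and 59.5% in dmPGE2+APAP. For 1080 rings of other hosts it was 67.1% and 66.0%, then 60.6%, 63.7% and 54.4%, then 62.2%, 60.7% and 62.6%. APAP 3, the shallowest deep library, was lowest in both. The 6 rings of the MAP kinase cascade stood at 52.4% and 52.6% in control, 42.6%, 40.4% and 32.1% in APAP, and 41.7%, 42.0% and 38.5% in dmPGE2+APAP. Both control libraries lay above all 6 treated libraries for these 6 rings together, and also for the 1080 rings of other hosts together. Unlike the deep libraries, control 3 lists only some of the 37 and of the 1080 rings. Over those listed there the share was 5.65% for the members and 6.15% for other hosts.

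Single rings of the cascade differed. For the Map2k1 ring the share was 73.5% and 71.8% in control, 62.0%, 59.2% and 46.9% in APAP, and 64.4%, 60.3% and 62.6% in dmPGE2+APAP. For the Map3k5 ring novel_circ_0000190 it was 53.3% and 56.1%, then 33.1%, 39.5% and 26.1%, then 27.6%, 44.6% and 29.6%. In a second Map3k5 ring, novel_circ_0000180, it was 33.9% and 24.1%, then 13.7%, 6.12% and 13.4%, then 23.8%, 7.95% and 12.3%. In these 3 both control libraries lay above all 6 treated ones, as they did in 5 of the 37 member rings and in 11.4% of the rings of other hosts. The Map3k21 ring novel_circ_0013497 went the other way for APAP, with 59.5% and 62.5% in control and 75.9%, 65.7% and 73.2% in APAP, then 38.5%, 86.4% and 83.8% in dmPGE2+APAP.

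**Figure D5:**
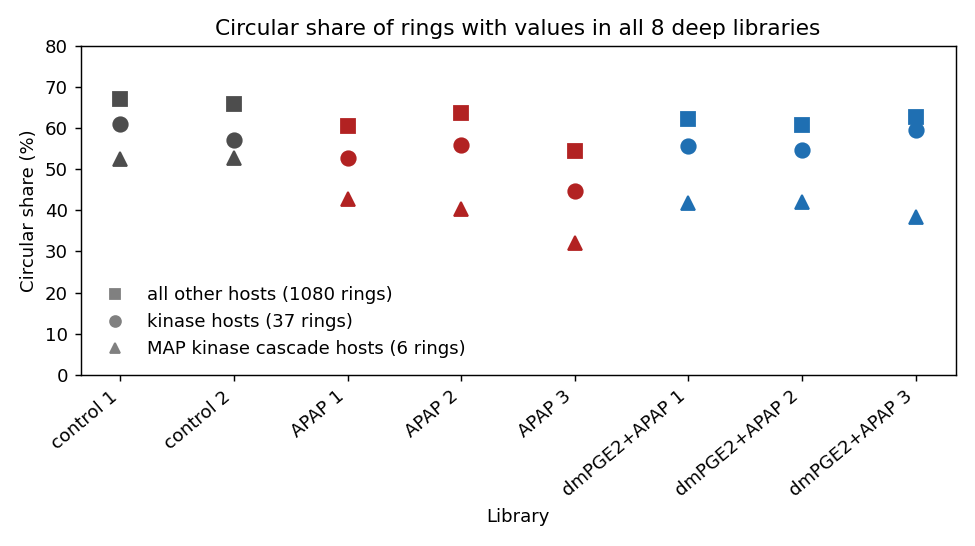
Circular share in percent (vertical axis) of the rings with values in all 8 deep libraries, summed over 37 rings of kinase hosts (circles), the 6 of them from the MAP kinase cascade (triangles) and 1080 rings of other hosts (squares), coloured by group. The triangles lie lowest in every library, at 52.4% and 52.6% in control and 32.1% to 42.6% in the treated libraries.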

How the data were processed

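Total RNA of liver was depleted of ribosomal RNA and sequenced from 9 libraries that mark strand, per the labels' protocols. The authors deposited a table of back-splice read counts per circRNA and library, with host gene, position and lists of junction and non-junction counts. Its TPM columns were not used here. HISAT2 and build GRCm38 (mm10) are named in the submitters' processing notes, and the circRNA caller is not given in the sources used here. Columns headed BC were given to the control group by elimination, since the other 2 groups' columns carry their names. The members, their classes and the gene lists were chosen with earlier results of these data known. Named hosts are any past the threshold, the 20 with the highest mean CPM, the 3 highest of each class and the 5 with the smallest p in each comparison. Named rings are the 10 with the highest mean CPM and the highest of each named MAP kinase host. One host that these rules name is not reported here. Other names (Stk35, Cdk17, the untested hosts and single rings) were chosen after their values were seen.

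Counts were summed per host. Hosts and rings were tested where 3 or more of the 9 libraries had 5 or more reads, in edgeR 4.0.16 (R 4.3.3, TMM, quasi-likelihood F test, 3 groups in 1 fit), adjusted by Benjamini-Hochberg over all tested at 0.05. DESeq2 1.42.0, limma 3.58.1 (voom), other filters and scalings, a replicate block and each library left out were alternatives. Depth was 4362 to 154449 back-splice reads, so that 1 read is worth 6.47 to 229 CPM. PCR copies could not be removed from the counts, and SE and p cover the spread between libraries. The edgeR SE was formed as the absolute log2 fold change over the square root of F, and can differ from that of the other tools. Circular shares came from the deposited lists, of which 25 member rings' could not be split. Exons and sequences came from GENCODE M21 on GRCm38.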

Additional observations from a re-analysis of the deposited data

How the results depend on the processing

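Over the alternatives run, the log2 fold changes of the named hosts gave 1536 values, of which 1436 kept their direction and their side of the threshold, 98 changed sign without passing, and 2 newly passed. For the named rings these numbers were 752, 699, 50 and 3. All 5 new calls were Cdk8 or its ring. The count of member hosts passing in edgeR, 0 in each comparison, ran from 0 to 1 over the left-out libraries in both comparisons with control, with 1 without control 1, and so did the count of rings. It stayed at 0 for dmPGE2+APAP against APAP. With limma-voom 1 ring passed in APAP against control, and the median log2 fold change of all tested hosts there moved from 0.15 to -0.06. Deviations of same-numbered libraries from their group means correlated between -0.0393 and 0.0322, and those of libraries with different numbers between -0.0322 and 0.0402. Without control 3 the deviations of control 1 and 2 mirror each other, so that these values cannot exclude a pairing by replicate number. With the replicate block 0 hosts and 0 rings passed in every comparison. The mean percent of reads from members, leaving out the most abundant member ring of each library, was 1.80%, 1.90% and 2.04% in control, APAP and dmPGE2+APAP, and as a percent of detected rings it was 2.59%, 2.45% and 2.48%, the first with 2.84% in control 3 against 2.38% and 2.55% in control 1 and 2. For the circular share, each library counted those of the 261 member rings with readable lists that were listed in it. Libraries thus covered different rings. The share was 33.9% ± 24.2 in control (SD, n = 3), or 47.9% without control 3, which moves control from the lowest group mean to the highest. It was 40.7% in APAP and 44.4% in dmPGE2+APAP, and 51.0% and 56.6% over rings usable in all 8 deep libraries, and 25.6% and 28.6% with junction reads counted once. The cause of these shifts was not tested. For APAP against control the median SE of the log2 fold change was 0.90 over the 50 tested member hosts and 0.41 over the 28 read in all 8 deep libraries, and 0 passed in either; what depth adds to this was not tested.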
